A study of Mus musculus with 16 samples.

Results

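The comparison described is the diet effect common to rested and exercised muscle: 8 libraries of quadriceps from mice on a high-fat diet (HFD) were set against 8 libraries from mice on a control diet (CON), with exercise state as an additive term. All 16 libraries of the series entered it, 4 in each group: rested mice on either diet (CON-pre and HFD-pre) and exercised mice on either diet (CON-post and HFD-post). The mice were males of the strain C57BL/6NTac aged 16 weeks, which had received 60% (HFD) or 10% (CON) of their kcal from fat for 10 weeks and carried no transgene or deletion named in the labels. Post-exercise muscle was taken 3 h after 1 bout of maximal treadmill running, and pre-exercise muscle came from rested mice. Each library was made from 1 muscle of 1 group, and the labels do not name the animals, cages or batches, so p-values measure the spread between these libraries only. The question addressed was which transcripts differed with diet whether or not the mouse had run.

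Skeletal muscle burns fatty acids that arrive from blood lipoproteins or adipose tissue, or that are released from droplets inside the fibre. They are carried over the membrane and bound in the cytosol, activated to acyl-CoA, passed into mitochondria on carnitine, and shortened by the enzymes of beta-oxidation. Many of these genes are targets of the peroxisome proliferator-activated receptors (PPARs), nuclear receptors that bind fatty acids and act as dimers with the retinoid X receptors. Malonyl-CoA, the first product of fatty acid synthesis, inhibits the entry of acyl groups into mitochondria.

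Expression was estimated by the authors as FPKM, in which fragments are divided by transcript length and by library size. The table held 23970 gene symbols. The read depth behind a value is unknown, so no counting interval is given. Summed FPKM ran from 298638 to 329282 in CON (median 316814) and from 283575 to 314764 in HFD (median 301660). The 11256 genes whose mean over all 16 libraries reached 0.5 FPKM were tested on log2(FPKM + 0.5), a scale that understates the change of low genes. The muscle label held: the summed level of 8 muscle markers was 50396 to 60803 FPKM in CON (median 57305) and 46076 to 54569 in HFD (median 51257). Creatine kinase (Ckm) alone was at least 10052 FPKM in every library. All 6 markers of T and B cells were under the filter on low values.

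Few transcripts differed with diet. A limma adjusted p under 0.05 made 114 of the genes tested (1.01%) differentially expressed genes (DEG). HFD up-regulated 56 of them (0.498% of genes tested) and down-regulated 58 (0.515%). Most changes were small, with a median log2 fold change of 0.52 among rises and -0.54 among falls, and 32 of the rises and 33 of the falls were under 1.5-fold. Only 8 rises and 7 falls reached 2-fold. The HFD and CON libraries did not overlap within pre and within post for 61 of the DEG, against 0.640% of all genes tested, and all 8 HFD libraries lay beyond all 8 CON libraries for 42 of them, against 0.391% of all genes. The median log2 fold change of all genes was -0.017, and 56.6% of them were lower in HFD. At an unadjusted p under 0.05 there were 1205 genes, or 10.7% of those tested, 459 higher and 746 lower. The count of falls rested on single libraries: 35 genes fell without CON-pre 1, 36 without CON-post 2, 37 without HFD-pre 1 and 82 without CON-post 1, while the rises numbered 47 to 58 without any 1 library. With the mean score of 13 slow-fibre genes as a covariate, 72 genes rose and 127 fell. At the edge of the threshold, Il1r2 (log2 fold change -0.77, adjusted p = 0.0498) was the last DEG and P2ry2 (0.28, adjusted p = 0.0523) the first gene outside it.

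**Figure D1:**
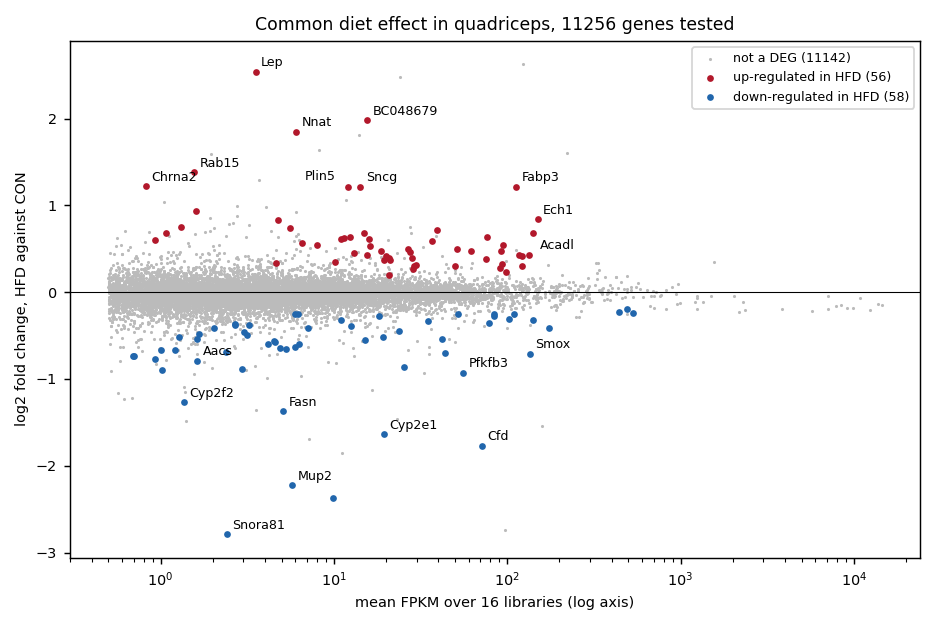
Log2 fold change of HFD against CON (vertical axis) and mean FPKM over 16 libraries (horizontal log axis) for the 11256 genes tested, with up-regulated DEG in red, down-regulated DEG in blue and other genes in grey. Most of the 114 coloured points lie near the band of grey points, and Lep, BC048679 and Nnat stand highest among the red ones.

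Of the lists, which were written with earlier results of these data known, those of fatty acid use held the most DEG. The shares of all genes beside their counts are given for scale and were not tested. Of 18 uptake and activation genes tested, 5 rose and 1 fell, against 0.498% and 0.515% of all genes. Fabp3, the fatty acid binding protein of heart and muscle, had 35.5 to 101 FPKM in CON (median 71.3) and 89.7 to 264 in HFD (median 143). The 2 diets did not overlap within either exercise state, and the log2 fold change was 1.22 (SE, the standard error, 0.18, adjusted p = 0.00143). Cd36, the fatty acid translocase, rose from a median of 79.1 FPKM (54.8 to 94.2) to 113 (88.3 to 138), a log2 fold change of 0.55 (SE 0.08, adjusted p = 0.00161). Dbi, which binds acyl-CoA, was between 99.3 and 126 FPKM in the CON libraries and between 137 and 179 in the HFD libraries, with no overlap (0.42, adjusted p = 0.001). The transporter Slc27a1 (0.41, adjusted p = 0.0134) and the acyl-CoA synthetase Acsl1 (0.32, adjusted p = 0.0136) rose less. Vldlr, a receptor for triglyceride-rich lipoproteins, fell (-0.33, adjusted p = 0.0384), a call made in 18 of 36 alternative fits and kept among the fits without 1 library only for CON-pre 3, CON-post 1, CON-post 3, HFD-pre 4, HFD-post 2 or HFD-post 3 (adjusted p up to 0.0902 without any of the others). Lipoprotein lipase (Lpl) was not a DEG (0.12, adjusted p = 0.682), and its inhibitor Angptl4 was 0.60 higher on the log2 scale without passing the test (adjusted p = 0.101).

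Entry into mitochondria followed. Of 9 genes of the carnitine shuttle and of malonyl-CoA control, 5 rose and 1 fell (all genes, 0.498% and 0.515%). The carnitine-acylcarnitine translocase Slc25a20 was at 21.9 to 33.7 FPKM in CON and 37.8 to 55.0 in HFD, so that every HFD library exceeded every CON library (log2 fold change 0.59, SE 0.06, adjusted p = 7.75e-05). Cpt2, the inner carnitine palmitoyltransferase, rose by 0.46 (SE 0.06, adjusted p = 2.51e-04), also without overlap. The muscle form of the outer enzyme, Cpt1b, had 75.5 to 88.5 FPKM in CON and 94.2 to 119 in HFD (0.28, adjusted p = 0.00591), while the liver form Cpt1a was not a DEG (0.15, adjusted p = 0.608). Carnitine acetyltransferase (Crat) rose by 0.24 (adjusted p = 0.00224). Malonyl-CoA decarboxylase (Mlycd), which removes malonyl-CoA, rose (0.40, adjusted p = 0.00998). Acaca, the cytosolic carboxylase that makes it, fell (-0.52, adjusted p = 0.00205). The mitochondrial carboxylase Acacb, the more abundant form in muscle, did not pass the test (0.01, adjusted p = 0.949).

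Of the 20 genes of mitochondrial beta-oxidation tested, 12 rose and none fell, against 0.498% of all genes that rose. Their median log2 fold change was 0.34 in each exercise state fitted alone and in both together. Ech1, a dienoyl-CoA isomerase, led the list with 92.3 to 126 FPKM in CON (median 107) and 171 to 241 in HFD (median 188), a log2 fold change of 0.84 (SE 0.07, adjusted p = 5.31e-06). Decr1, the dienoyl-CoA reductase that like Ech1 serves unsaturated fatty acids, rose from 25.7 to 32.7 FPKM in CON to 41.8 to 61.5 in HFD (0.72, SE 0.07, adjusted p = 5.89e-05). Neither gene overlapped between the diets. The acyl-CoA dehydrogenases Acadvl, Acadl, Acadm and Acads rose, and Acad9, Acad10 and Acad11 were not DEG. The long-chain enzyme Acadl had 88.1 to 132 FPKM in CON and 143 to 210 in HFD (0.68, adjusted p = 1.39e-05), Acadvl rose by 0.43 (adjusted p = 0.00224) and Acadm by 0.41 (adjusted p = 2.94e-04). Acads, the short-chain enzyme, rose by 0.30 (adjusted p = 0.0387), but its call was lost when any 1 library other than CON-post 3 or HFD-post 3 was left out (adjusted p up to 0.0884). Further along the spiral, the trifunctional protein subunit Hadha rose (0.47, adjusted p = 3.29e-04), with 68.1 to 87.0 FPKM in CON and 96.4 to 129 in HFD. The partner subunit Hadhb, at 26.3 to 42.7 FPKM in CON and 33.0 to 72.5 in HFD, overlapped between the diets and was not a DEG (0.41, SE 0.12, adjusted p = 0.156). The thiolase Acaa2 rose by 0.63 (adjusted p = 6.26e-04), the isomerase Eci2 by 0.31 (adjusted p = 6.26e-04) and Hadh by 0.38 (adjusted p = 0.0134). Electrons from the dehydrogenases pass to ubiquinone through the electron transfer flavoprotein and its dehydrogenase. The dehydrogenase Etfdh (0.47, adjusted p = 0.001) and the flavoprotein subunit Etfb (0.30, adjusted p = 0.0142) rose, and the other subunit, Etfa, was not a DEG (0.22, adjusted p = 0.347). The hydratase Echs1 was at 36.1 to 50.1 FPKM in CON and 35.4 to 53.8 in HFD and was not a DEG (-0.02, adjusted p = 0.955). Over the 34 alternative fits that kept both exercise states, between 11 and 13 of the 20 genes were DEG.

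**Figure D2:**
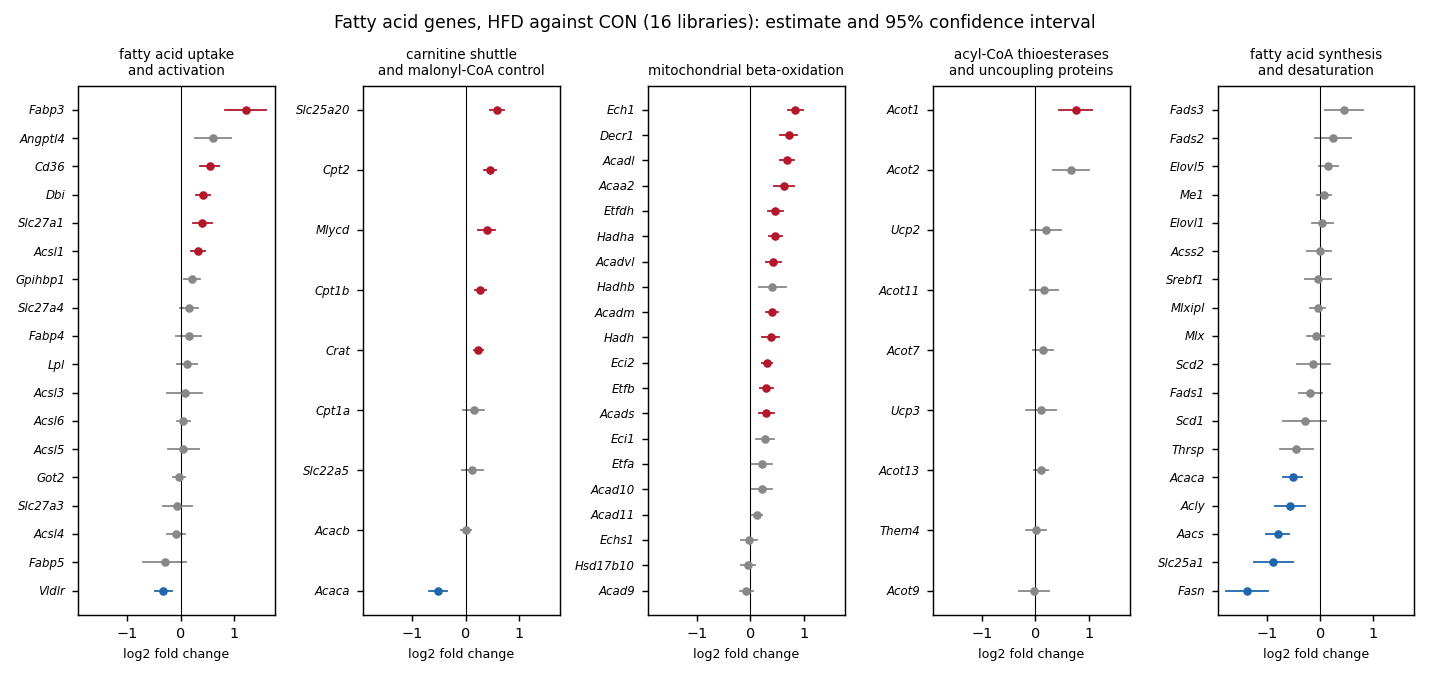
Log2 fold change of HFD against CON (horizontal axis) with its 95% confidence interval for the genes tested in 5 fatty acid lists, fitted on 16 libraries, with up-regulated DEG in red, down-regulated DEG in blue and genes that were not DEG in grey. The 12 red points of beta-oxidation lie between 0.30 and 0.84, and the 5 blue points of synthesis between -1.37 and -0.52.

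Of 19 peroxisomal genes 3 rose, against 0.498% of all genes, and 12 had an unadjusted p under 0.05, against 10.7%. The rises were catalase (Cat), with 38.1 to 53.8 FPKM in CON and 49.5 to 71.2 in HFD (0.50, SE 0.08, adjusted p = 0.00166), the bifunctional enzyme Hsd17b4 (0.37, adjusted p = 0.0119) and Pex11a, which takes part in peroxisome division (0.54, adjusted p = 0.0231). The call of Pex11a was lost without CON-pre 1, HFD-pre 1, HFD-pre 4 or HFD-post 4 (adjusted p up to 0.0623). Without both HFD-post 2 and HFD-post 4, Cat was the 1 DEG left of these 3, since Hsd17b4 (0.37, adjusted p = 0.0525) and Pex11a (0.55, adjusted p = 0.0675) kept their size but did not pass. Acot1, a cytosolic acyl-CoA thioesterase, rose (0.76, adjusted p = 0.0135). Its values are uncertain, since Acot1 and its near-identical neighbour Acot2 (0.67, adjusted p = 0.0537) can exchange reads. The uncoupling protein Ucp3 was not a DEG (0.11, adjusted p = 0.851).

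Of 22 genes of lipid droplets, lipolysis and triglyceride synthesis, 3 rose, where 0.498% of all genes did, and 11 had an unadjusted p under 0.05, where 10.7% did. Plin5, which coats droplets and tethers them to mitochondria in oxidative tissues, had 2.52 to 13.3 FPKM in CON (median 7.78) and 10.1 to 24.5 in HFD (median 16.6). The diets were apart within each exercise state, though the highest CON-post library exceeded the lowest HFD-pre library, and the log2 fold change was 1.21 (SE 0.17, adjusted p = 9.30e-04). Monoglyceride lipase (Mgll), the last step of lipolysis, rose by 0.45 (adjusted p = 0.0125), and the droplet protein Cidea, also a brown adipocyte marker, rose by 0.68 from a low level (0.290 to 1.12 FPKM in CON, 1.03 to 2.07 in HFD, adjusted p = 0.0119). Neither adipose triglyceride lipase (Pnpla2, 0.17, adjusted p = 0.303) nor Plin2 (0.10, adjusted p = 0.75) was a DEG. Without HFD-post 2 and 4 the log2 fold change of Mgll was 0.39 and did not pass (adjusted p = 0.0664).

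Among genes of ketone body use, Acat1, a thiolase that also serves isoleucine breakdown, rose from 39.7 to 48.5 FPKM to 51.2 to 60.8 (0.30, adjusted p = 0.00431). Oxct1, the enzyme that commits ketone bodies to oxidation, was not a DEG (-0.19, adjusted p = 0.213).

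Of 18 fatty acid synthesis genes tested 5 fell and none rose, against 0.515% of all genes that fell. The median log2 fold change of the whole list was -0.10, with -0.38 in the pre-exercise libraries alone and 0.05 in the post-exercise libraries alone, and -0.20 without HFD-post 2 and 4. Fatty acid synthase (Fasn) had 3.91 to 12.1 FPKM in CON (median 8.23) and 2.06 to 3.11 in HFD (median 2.45), without overlap (log2 fold change -1.37, SE 0.18, adjusted p = 5.92e-04). Aacs, which activates acetoacetate for lipid synthesis, fell from a median of 2.01 FPKM (1.40 to 3.40) to 1.000 (0.475 to 1.96), a log2 fold change of -0.79 (SE 0.10, adjusted p = 3.31e-04). The highest CON and HFD values were both in post-exercise libraries, and the diets were apart within each state. The citrate carrier Slc25a1, which brings out the carbon for synthesis, fell by 0.88 on the log2 scale (adjusted p = 0.0176). ATP citrate lyase (Acly) fell too (-0.57, adjusted p = 0.0437), although this call was lost when any 1 library other than CON-post 3 or CON-post 4 was left out (adjusted p up to 0.0925). It was also lost, at a log2 fold change of -0.55, under upper-quartile (adjusted p = 0.0619), median-of-ratios (0.0569) and quantile scaling (0.0564), and with Adipoq and Plin1 as a covariate or without HFD-post 2 and 4. Stearoyl-CoA desaturase 1 (Scd1, -0.29, adjusted p = 0.631) and the regulator Srebf1 (-0.04, adjusted p = 0.948) were not DEG. Of 23 cholesterol synthesis genes 0 were DEG and 3 had an unadjusted p under 0.05, against 1.01% and 10.7% of all genes. Among genes that belong to no list and were picked out after their values were seen, pyruvate carboxylase (Pcx, -0.52, adjusted p = 7.26e-04) and transketolase (Tkt, -0.65, adjusted p = 0.0182), which feed citrate and pentose metabolism, also fell.

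The receptors and coactivators that act on these genes showed no change in their own transcripts that passed the test. Of 19 PPAR, RXR, LXR and PGC-1 genes 0 were DEG and 1 had an unadjusted p under 0.05, against 1.01% and 10.7% of all genes. Their median log2 fold change was -0.00. Among them were Ppara (0.17, adjusted p = 0.573), Ppard (-0.12, adjusted p = 0.483), Pparg (-0.03, adjusted p = 0.961) and Rxra (0.02, adjusted p = 0.948). Ppargc1a was 0.39 lower on the log2 scale (SE 0.13, adjusted p = 0.21), with 6.28 to 35.1 FPKM in CON and 4.18 to 26.5 in HFD.

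The 250 bases before the start of each gene (RefSeq, GRCm38.p6) were searched for the letters AGGTCA on either strand, the half-site of nuclear receptors such as PPAR and RXR. A promoter was matched for 8486 of the genes tested, and 13.0% of them held the letters. Among up-regulated DEG 6 of 42 matched promoters held them (14.3%), namely those of Acadm, Acadvl, Cat, Cd36, Plin5 and Slc25a34, and among down-regulated DEG 4 of 44 (9.09%), namely Acly, Ak1, Cyp2f2 and Spns2. The share among rises was thus near that of all promoters. A direct repeat of the half-site with a spacer of 1 base, the form that PPAR and RXR dimers bind, stood in 3 promoters of all (0.0354%) and in 0 of the DEG. A match is only a match of letters, and its absence from this window says nothing of the factor. Shown as examples are the promoters with the half-site among the genes named by the rule for the largest changes or the lowest p in a list, 3 of rises and 1 of a fall, 5′ to 3′ on the strand of the gene with the half-site in capitals: Plin5 (chr17:56117549-56117798, minus strand), Cd36 (chr5:17835897-17836146, minus strand, half-site on the other strand), Cat (chr2:103485154-103485403, minus strand) and Cyp2f2 (chr7:27119705-27119954, plus strand).
Plin5: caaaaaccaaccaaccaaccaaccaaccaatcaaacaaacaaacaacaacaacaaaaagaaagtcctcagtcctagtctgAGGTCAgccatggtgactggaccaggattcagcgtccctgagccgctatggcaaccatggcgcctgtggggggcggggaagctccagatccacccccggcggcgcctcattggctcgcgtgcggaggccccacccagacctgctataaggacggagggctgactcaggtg
Cd36: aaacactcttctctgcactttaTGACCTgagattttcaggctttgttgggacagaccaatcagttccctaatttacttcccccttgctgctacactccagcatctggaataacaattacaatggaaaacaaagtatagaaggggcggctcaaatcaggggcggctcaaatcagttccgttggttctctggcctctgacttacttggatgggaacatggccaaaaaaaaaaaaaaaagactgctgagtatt
Cat: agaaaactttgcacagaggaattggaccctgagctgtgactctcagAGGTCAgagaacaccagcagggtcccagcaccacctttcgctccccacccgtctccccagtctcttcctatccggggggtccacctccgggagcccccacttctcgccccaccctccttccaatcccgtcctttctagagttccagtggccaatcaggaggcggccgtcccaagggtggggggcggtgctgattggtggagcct
Cyp2f2: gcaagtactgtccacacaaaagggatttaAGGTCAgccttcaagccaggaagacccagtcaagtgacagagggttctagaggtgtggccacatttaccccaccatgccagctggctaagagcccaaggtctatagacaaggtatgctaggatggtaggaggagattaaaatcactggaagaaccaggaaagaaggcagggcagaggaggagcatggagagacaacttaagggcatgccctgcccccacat
The half-site began 170 bases before the start in Plin5, 228 in Cd36, 204 in Cat and 221 in Cyp2f2.

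Of 31 genes of glucose uptake, glycolysis and glycogen, 2 fell and none rose, against 0.515% of all genes that fell, and between 0 and 5 were DEG over the 34 alternative fits of both states. A total of 24 were lower in HFD, against 56.6% of all genes, with a median log2 fold change of -0.06, and 14 had an unadjusted p under 0.05, against 10.7%. Pfkfb3, a bifunctional kinase and phosphatase that sets the level of the activator of phosphofructokinase, had 27.6 to 136 FPKM in CON (median 70.6) and 21.0 to 53.4 in HFD (median 36.4). The diets overlapped, and the log2 fold change was -0.93 (SE 0.22, adjusted p = 0.0476). The call held in 14 of 36 alternative fits and was lost when any 1 library other than CON-pre 2, CON-pre 4, CON-post 1 or CON-post 4 was left out (adjusted p up to 0.107). Gapdh, a glycolytic enzyme with many pseudogene copies and therefore uncertain, had 96.5 to 131 FPKM in CON and 94.1 to 106 in HFD (-0.26, SE 0.06, adjusted p = 0.0395). It was not a DEG under upper-quartile (adjusted p = 0.0871), median-of-ratios (0.089) or quantile scaling (0.0545), nor without any 1 library other than CON-post 3, CON-post 4 or HFD-post 1 (adjusted p up to 0.0943). The glucose transporter Slc2a4 (-0.18, adjusted p = 0.168) and Tbc1d1, which holds it inside the cell (0.38, SE 0.12, adjusted p = 0.207), were not DEG. Of 25 insulin signalling genes 0 were DEG and 5 had an unadjusted p under 0.05, against 1.01% and 10.7% of all genes. The nearest to a call was Akt2, the kinase that carries the insulin signal to glucose transport. Akt2 had 32.1 to 45.0 FPKM in CON and 29.1 to 37.3 in HFD (-0.24, SE 0.06, adjusted p = 0.0702), and it passed the test under upper-quartile (adjusted p = 0.0185), median-of-ratios (0.0214) and quantile scaling (0.0362).

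In the lists of the steps after beta-oxidation no gene passed. Beside their counts, 1.01% of all genes were DEG, 10.7% had an unadjusted p under 0.05 and 56.6% were lower in HFD. All 19 genes of the tricarboxylic acid cycle were higher in HFD, by a median of 0.08, but 0 were DEG and 2 had an unadjusted p under 0.05. Citrate synthase (Cs) was at 218 to 240 FPKM in CON and 235 to 274 in HFD (0.12, SE 0.04, adjusted p = 0.218). Of 50 respiratory chain genes 35 were higher and 15 lower, with a median of 0.03, 0 DEG and 1 unadjusted p under 0.05. Ndufaf1, an assembly factor of complex I outside these lists and picked out after its values were seen, rose by 0.20 (adjusted p = 0.0336), with the call lost in 18 of 34 alternative fits of both states. The 13 genes of pyruvate dehydrogenase and its kinases held 0 DEG (1 at an unadjusted p under 0.05), and Pdk4, the kinase that turns pyruvate dehydrogenase off, was at 146 to 555 FPKM in CON and 240 to 531 in HFD (0.18, adjusted p = 0.812).

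**Figure D3:**
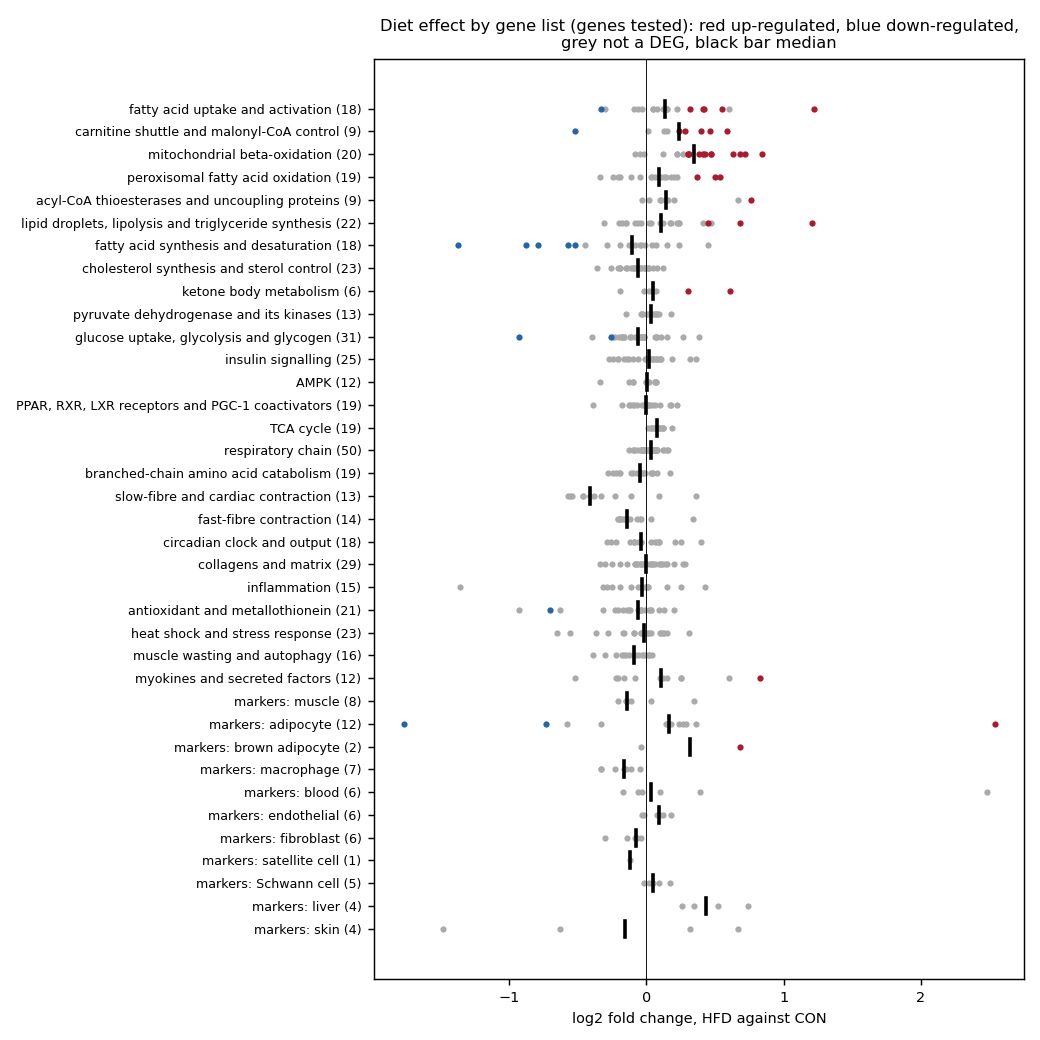
Log2 fold change of HFD against CON (horizontal axis) for each gene tested in the role and marker lists (vertical axis, number of genes tested in brackets), with up-regulated DEG in red, down-regulated DEG in blue, other genes in grey and the median of each list as a black bar. Red points gather in the fatty acid lists, 12 of 20 in beta-oxidation, and blue points in fatty acid synthesis, 5 of 18. The lists were written with earlier results of these data known.

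The largest rises and falls of all were mostly not fatty acid genes. Leptin (Lep), the satiety hormone of adipocytes, was at 0.127 to 1.07 FPKM in CON (median 0.568) and 2.83 to 17.8 in HFD (median 5.28), so that every HFD library exceeded every CON library (log2 fold change 2.54, SE 0.28, adjusted p = 1.21e-04). The serine protease adipsin (Cfd), also made by adipocytes, went the other way, from 71.5 to 141 FPKM in CON (median 108) to 17.7 to 47.0 in HFD (median 34.5), again without overlap (-1.77, SE 0.19, adjusted p = 1.04e-04). The beta-adrenergic receptor of adipocytes, Adrb3, fell (-0.73, adjusted p = 0.0216), but not without CON-pre 1 or HFD-post 1 (adjusted p up to 0.0542). Of 12 adipocyte markers tested, 1 rose and 2 fell (0.498% and 0.515% of all genes) and 9 were not DEG. The median log2 fold change of the 12 was 0.16, and it ran from -0.00 to 0.24 over the 34 alternative fits of both states. Adiponectin (Adipoq) was at 10.6 to 22.7 FPKM in CON and 13.2 to 45.4 in HFD (0.29, SE 0.22, adjusted p = 0.687), and perilipin 1 (Plin1) differed by 0.14 (adjusted p = 0.855). The summed level of the 12 markers was 710 to 1008 FPKM in CON and 653 to 1257 in HFD, and none of them was at 0 in every library. A different number of cells of a type and a different amount of RNA per cell cannot be told apart in whole muscle. HFD-post 4 (45.4 FPKM) and HFD-post 2 (34.8) had the most Adipoq, and HFD-post 4 also the most Lep (17.8). With the level of Adipoq and Plin1 as a covariate, Lep (2.26, adjusted p = 1.35e-05) and Cfd (-1.90, adjusted p = 2.42e-05) were still DEG, as were 102 of the 114. With HFD-post 2 and 4 left out, Lep (2.21, adjusted p = 2.03e-04), Cfd (-1.87, adjusted p = 4.15e-04) and 79 of the 114 were still DEG, and 91 genes were called in all, 46 up-regulated and 45 down-regulated. With the mean score of the 12 adipocyte markers, Lep and Cfd included, as a covariate, 138 genes were DEG (64 higher, 74 lower) and 111 of the 114 were among them, all but Acly, Dusp7 and Pfkfb3.

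**Figure D4:**
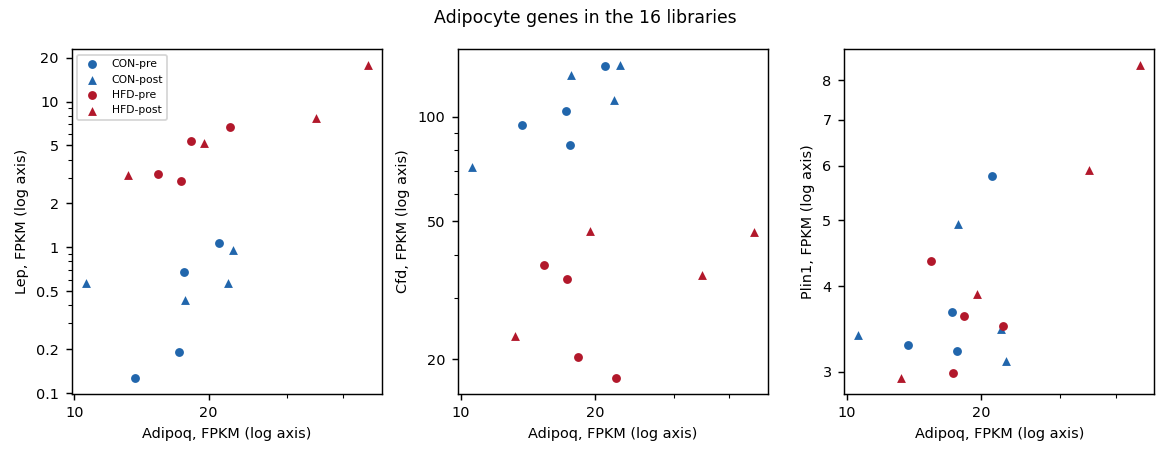
FPKM of Lep, Cfd and Plin1 (vertical log axes) against FPKM of Adipoq (horizontal log axis) in the 16 libraries, with CON in blue, HFD in red, circles before and triangles after exercise. At Adipoq levels that both diets share, the HFD libraries have more Lep and less Cfd than the CON libraries, while Plin1 of the diets is mixed, and the 2 libraries with the most Adipoq are HFD-post 2 and 4.

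BC048679, which belongs to no list, was at 3.37 to 8.15 FPKM in CON and 14.9 to 38.8 in HFD (log2 fold change 1.98, SE 0.17, adjusted p = 5.31e-06), and it was a DEG in all 36 alternative fits, those of 1 exercise state included. Neuronatin (Nnat), an imprinted membrane protein of the endoplasmic reticulum, went from a median of 2.73 FPKM (0.499 to 4.12) to 7.52 (5.66 to 21.7), a log2 fold change of 1.85 (SE 0.30, adjusted p = 0.00296). Its highest value and that of gamma-synuclein (Sncg, 5.25 to 10.7 FPKM in CON and 11.3 to 41.5 in HFD, 1.22, adjusted p = 0.0072) were both in HFD-post 4. Rab15, a small GTPase of endosome recycling, rose from 0.0937 to 1.06 FPKM to 1.61 to 4.08 (1.38, SE 0.17, adjusted p = 2.51e-04). Chrna2, an alpha subunit of nicotinic acetylcholine receptors, was low in both diets, at 0.146 to 0.797 FPKM in CON and 0.840 to 2.02 in HFD, and rose by 1.22 (SE 0.14, adjusted p = 1.64e-04). Npr3, the clearance receptor for natriuretic peptides, was at 0.695 to 1.14 FPKM in CON and 1.14 to 4.24 in HFD (0.94, SE 0.15, adjusted p = 0.00198). The difference in Npr3 was 0.52 before exercise and 1.36 after it. Of 12 myokine genes 1 rose, Ostn, which encodes the secreted factor musclin, and 5 had an unadjusted p under 0.05, against 0.498% and 10.7% of all genes. Ostn rose by 0.83 (adjusted p = 0.0181), with 1.22 before exercise and 0.44 after it. None of these state differences passed the test of interaction over all genes. Among DEG in no list that were picked out after their values were seen, the epoxide hydrolase Ephx2 (0.68, adjusted p = 5.92e-04), the retinal reductase Dhrs4 (0.64, adjusted p = 4.72e-04), the retinol saturase Retsat (0.53, adjusted p = 0.001) and the dehydrogenase-like Hsdl2 (0.49, adjusted p = 8.54e-04), enzymes of lipids and retinoids, rose with no overlap between the diets.

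Large falls were likewise scattered over functions. The cytochrome P450 Cyp2f2 was at 1.24 to 3.55 FPKM in CON and 0.314 to 1.03 in HFD, with no overlap (log2 fold change -1.27, SE 0.16, adjusted p = 3.31e-04). The related Cyp2e1, whose diets overlapped after exercise and which is named after its values were seen, fell from a median of 26.9 to 8.24 FPKM (-1.64, SE 0.21, adjusted p = 3.31e-04). Spermine oxidase (Smox), an abundant enzyme of polyamine breakdown, was at 100 to 242 FPKM in CON and 85.4 to 119 in HFD (-0.71, SE 0.14, adjusted p = 0.013), and without HFD-post 2 and 4 it had nearly the same fold change just outside the threshold (-0.72, adjusted p = 0.0504). Musk, the receptor kinase that organises the postsynaptic membrane of the neuromuscular junction, had 3.75 to 7.58 FPKM in CON and 2.47 to 4.98 in HFD. Its diets were apart within each exercise state, with the highest value of each in a post-exercise library, and the log2 fold change was -0.57 (SE 0.08, adjusted p = 0.00117). Pak1, a kinase that acts downstream of Rac and takes part in glucose transport, fell from 6.57 to 10.2 FPKM to 3.30 to 6.44, without overlap (-0.60, SE 0.08, adjusted p = 7.26e-04). Enho, which encodes the secreted peptide adropin, fell from 5.10 to 8.29 FPKM to 3.20 to 4.72, also without overlap (-0.66, SE 0.10, adjusted p = 0.00111). The glutamate transporter Slc1a3 (-0.67, adjusted p = 0.00425) and the paraoxonase Pon1 (-0.73, adjusted p = 0.0069) were at most 2.08 and 1.60 FPKM in any library.

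Some falls were larger but less secure, and are named after their values were seen. Snora81, a small nucleolar RNA, was listed at 0 in all 8 HFD libraries and in 2 of 8 CON libraries (adjusted p = 0.0212, and 0.0518 without CON-pre 1). Mup2 (-2.23, adjusted p = 0.0389) and Gm2083 (-2.37, adjusted p = 0.0498) belong to the major urinary proteins, whose near-identical copies can exchange reads, and they were DEG in 14 and 11 of 35 alternative fits. Leaving out any 1 library other than CON-post 1, CON-post 3, HFD-pre 4 or HFD-post 1 ended the call of Mup2 (adjusted p up to 0.089), and any 1 other than HFD-pre 1, HFD-pre 4 or HFD-post 1 that of Gm2083 (up to 0.107). Mup2 is known as a liver transcript. In HFD it was at 2.41 to 6.26 FPKM in HFD-pre 1, HFD-pre 4 and HFD-post 1, the same libraries that had the most albumin (Alb, 8.50 to 13.2 FPKM), and at most 1.34 in the other HFD libraries. In CON it was at 8.42 to 15.1 FPKM in CON-pre 1 to 4, CON-post 2 and CON-post 4, of which CON-pre 1 to 3 had 3.57 to 13.5 FPKM of Alb and the other 3 had 0.153 to 0.248. In CON-post 1 and CON-post 3 it was at 2.23 to 2.52, with 0.493 to 0.565 of Alb. None of the 4 liver markers tested was a DEG. The summed level of all 6 listed was 0.271 to 24.4 FPKM in CON and 0.30 to 32.5 in HFD, none was at 0 in every library, and their part in the fall of Mup2 and Gm2083 was not tested.

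**Figure D5:**
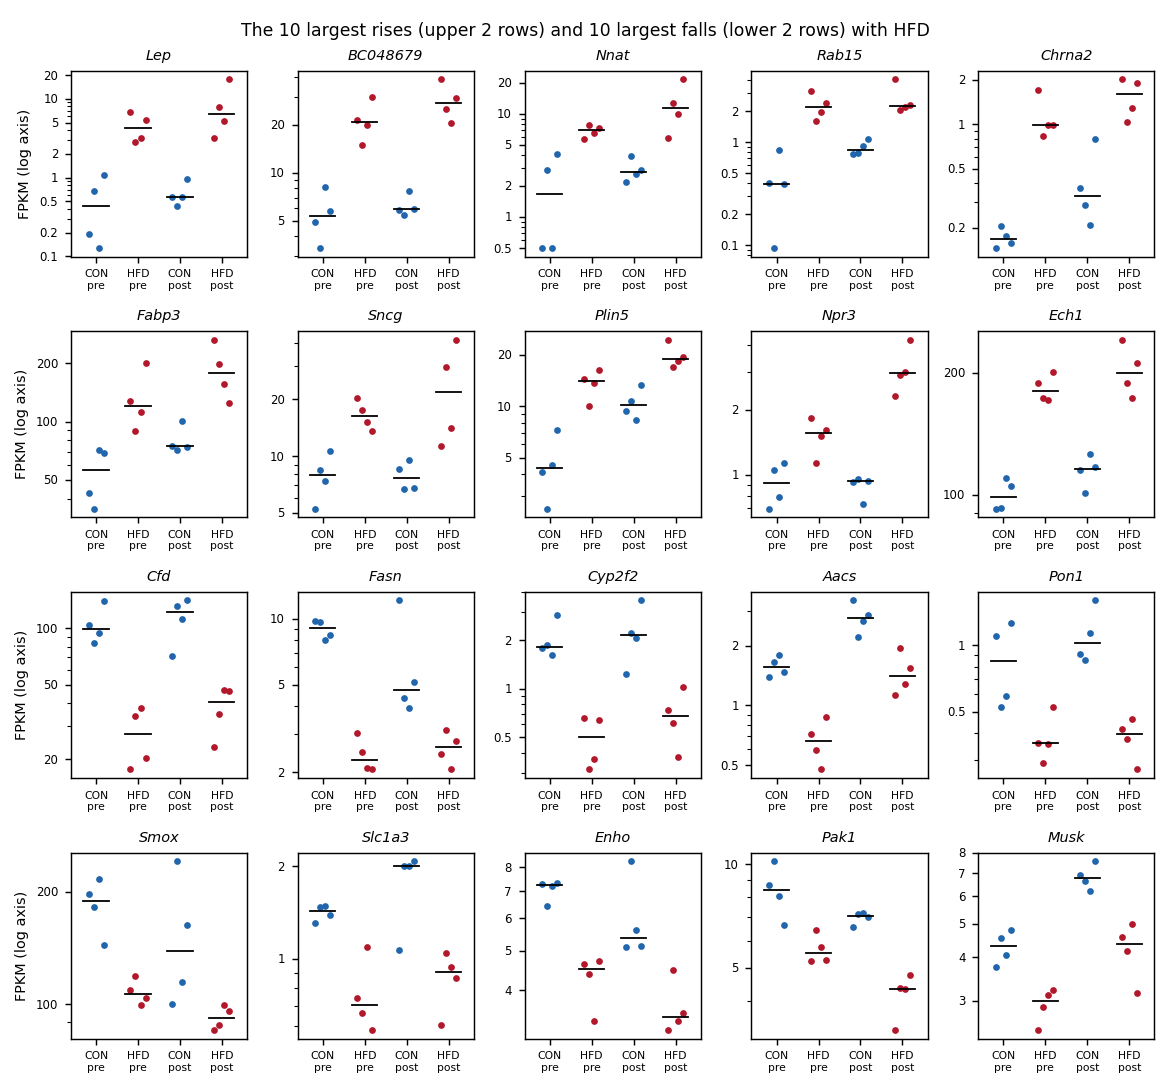
FPKM (vertical log axis) in each of 16 libraries for the DEG with the 10 largest rises and 10 largest falls whose diets did not overlap within either exercise state, by group, with CON in blue, HFD in red and a bar at the median of each group of 4. In every panel the 4 HFD libraries lie on one side of the 4 CON libraries in pre and again in post, and Npr3 shows a wider gap in post (1.36) than in pre (0.52).

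The antioxidant and metallothionein list had 15 of 21 genes lower in HFD, 8 with an unadjusted p under 0.05 and 1 fall, against 56.6%, 10.7% and 0.515% of all genes. The fall was in Mt1 (-0.70, SE 0.16, adjusted p = 0.0395), a metal-binding protein whose near-copy Mt2 was 0.93 lower without passing (adjusted p = 0.168). The call of Mt1 was lost when any 1 library other than CON-pre 4, CON-post 1, CON-post 3, HFD-pre 2, HFD-post 2 or HFD-post 3 was left out (adjusted p up to 0.0922). In HFD 11 of 13 genes of slow fibres and cardiac contraction were lower, by a median of 0.41 on the log2 scale, with 0 DEG and 1 unadjusted p under 0.05. The median of these genes ran from -0.56 to -0.04 over the 34 alternative fits of both states, the fit with their mean score as a covariate included. Their mean score on the log2 scale ran from -0.85 to 0.79 in CON (median 0.40) and from -0.79 to 0.83 in HFD (median -0.22), and with this score as a covariate 113 of the 114 DEG remained. Of 14 fast-fibre genes 12 were lower in HFD, by a median of 0.15, and 0 were DEG (7 at an unadjusted p under 0.05). All genes had 56.6% lower and 10.7% at that p. The fast-fibre median was -0.13 under upper-quartile and under median-of-ratios scaling. It was -0.01 under quantile scaling, which gives every library the same set of values. Ckm, at 12135 to 14318 FPKM in CON and 10052 to 12660 in HFD, behaved alike (-0.21, SE 0.05, adjusted p = 0.0684). It was at -0.19 under upper-quartile (adjusted p = 0.134) and median-of-ratios scaling (0.109), and at -0.04 under quantile scaling (0.758). Of 8 muscle markers, Ckm included, 6 were lower and 6 had an unadjusted p under 0.05, with 0 DEG. Their median was -0.14, with -0.12 under upper-quartile and median-of-ratios scaling and 0.00 under quantile scaling. Among 15 inflammation genes 0 were DEG (3 at an unadjusted p under 0.05). The chemokine Ccl8 was at 1.43 to 13.4 FPKM in CON and 0.748 to 2.66 in HFD (-1.36, SE 0.33, adjusted p = 0.0579). The macrophage markers, lower in 7 of 7, had a summed level of 52.7 to 130 FPKM in CON and 48.2 to 96.1 in HFD, with 0 DEG (0 at an unadjusted p under 0.05). Collagens and matrix (29 genes), heat shock and stress (23), muscle wasting and autophagy (16), the circadian clock (18), branched-chain amino acid catabolism (19) and AMPK (12) also held 0 DEG by limma. They had 2, 2, 4, 1, 6 and 1 genes at an unadjusted p under 0.05. Of all genes 1.01% were DEG and 10.7% had such a p. Markers of blood, endothelium, fibroblasts, satellite cells, Schwann cells, liver and skin held 0 DEG, and 1 endothelial and 1 skin marker had an unadjusted p under 0.05.

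The additive fit was compared with the exercise states taken singly. No gene passed the test of a diet by exercise interaction (lowest limma adjusted p = 0.926, 356 genes at an unadjusted p under 0.05), and 4 of the 114 DEG had an unadjusted interaction p under 0.05: Npr3, Ostn, Msrb1 and Mlycd. Fitted on the 8 pre-exercise libraries alone, 32 genes (0.284%) were DEG. In the 8 post-exercise libraries, which share none with them, 30 of these 32 had the same direction and 26 had an unadjusted p under 0.05. Among all genes 58.8% had the same direction in both states and 5.49% had an unadjusted p under 0.05 after exercise. The median size of the 32 genes, which were chosen by their pre-exercise values, was 0.77 before and 0.62 after exercise on the log2 scale. The post-exercise libraries alone gave 2 DEG, BC048679 and Npr3, so the other 112 DEG of both states were not DEG there. Without the exercise term in the fit 29 of the 114 were not DEG, among them Aacs, Acot1, Acsl1, Etfb, Gapdh, Gm2083, Mlycd, Mt1, Mup2, Musk, Ostn, Pfkfb3, Slc25a34, Slc27a1 and Vldlr. Of these named genes, Gapdh, Gm2083, Mup2, Ostn, Pfkfb3, Slc27a1 and Vldlr were lost again without HFD-post 2 and 4. Permuting the diet labels within each exercise state gave the 40 DEG named by rule an exact two-sided p of at most 0.00204, with 30 of them at 4.08e-04, the smallest that the 4900 arrangements can give. These genes were named from the same libraries, and diets that do not overlap within either state fix the p at that smallest value, so the permutation adds no support beyond the fit.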

How the data were processed

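RNA from 16 quadriceps muscles was sequenced by the authors as stranded polyadenylated libraries, aligned with TopHat (build mm9 per the Methods) and estimated with Cufflinks, and the deposited values are FPKM per gene. FPKM carry no depth, so no count model was used. Of 24487 entries, 27 with names turned into dates were left out (0.0771% of FPKM) and the values of 260 repeated symbols were summed. A value of 0 in 1 or more libraries, possibly an estimate that failed, was found for 16 genes with means of 5 FPKM or more.

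Diet was fitted with exercise state as a covariate in limma 3.58.1 (R 4.3.3) on log2(FPKM + 0.5), using limma's trend of variance with mean and Benjamini-Hochberg adjustment over 11256 genes. Genes were named as the 10 largest rises and falls among DEG whose diets did not overlap within either state, up to 3 DEG with the lowest p in each list (or the lowest p alone), and genes the study names. Members and lists were chosen with earlier results of these data known. Named genes were also tested by exact permutation with Python 3.11.15. Gene positions and promoters are from RefSeq GRCm38.p6, since the loci of 692 of 692 genes that the study lists overlap that build (mm9: 114). Alternatives were 20 other fits, 2 other thresholds and 16 fits leaving out 1 library. Simulated data of this comparison (11167 genes) had noise drawn independently for each gene and library, so shifts shared by many genes were not covered. In them 95.7% of 94 genes changed by 1 and 72.5% of 102 genes changed by 0.5 on the log2 scale were called. There 6 unchanged genes were called, and simulated data without a change gave 0 calls. The values of 2 genes are not reported here.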

Additional observations from a re-analysis of the deposited data

Results flagged for a closer look

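For the 80 genes named by rule, the 8 libraries of each diet were checked for a lowest or highest value far from the others (the gap to the nearest value over the whole range, against Dixon's 95% critical value), which made 160 groups of 8. Chance alone flags about 1 in 20 such groups. A total of 7 stood out, and their causes were not tested. In CON, Chrna2 was highest in CON-post 4 at 0.797 FPKM (ratio 0.575), Mef2a lowest in CON-pre 3 at 25.4 FPKM (0.589) and Rxra lowest in CON-post 1 at 25.9 FPKM (0.540). In HFD, HFD-post 3 gave the other 4: Hba-a2 lowest at 0.0608 FPKM (0.901), Krt14 highest at 2.92 FPKM (1.000), Mef2c lowest at 82.0 FPKM (0.539) and Trp63 highest at 5.61 FPKM (0.543). The other skin markers, Krt5 (5.90 FPKM), Krt10 (9.11), Krtdap (14.6) and Lor (1.62), were also highest of the HFD libraries in HFD-post 3, and the summed level of the 5 was 34.1 FPKM there against a median of 1.31 in HFD. Of the 7 genes only Chrna2 was a DEG. There were 111 DEG when CON-post 4 was left out and 118 when HFD-post 3 was.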

How the results depend on the processing

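The number of DEG (114, 56 up-regulated and 58 down-regulated) stayed within 1.5 times under other pseudocounts, filters, scalings, trends and weights. Other scalings gave more rises than falls, 80 and 65 with upper quartiles, 78 and 64 with median of ratios and 75 and 62 with quantiles. It was 85 without the exercise term and 148 with array weights. It was 199 with a slow-fibre score as a covariate (127 lower), 32 from the pre-exercise libraries alone (15 higher, 17 lower), 2 from the post-exercise libraries alone (2 higher, 0 lower), 182 at an adjusted p under 0.1 (98 lower) and 1205 at an unadjusted p under 0.05 (459 higher, 746 lower). Fits of 1 state use fewer samples. Leaving out 1 library gave 85 to 137 DEG, 47 to 58 higher and 35 to 82 lower, and the falls were 35 without CON-pre 1, 36 without CON-post 2, 37 without HFD-pre 1 and 82 without CON-post 1, for which the cause was not tested. Of the 114 DEG, 75 were DEG whichever library was left out, and 57 in every fit of both states. The labels do not say that libraries with the same replicate number are paired. Their deviations from the group means were weakly correlated (24 pairs, r from -0.220 to 0.213, 5 over 0.1), which cannot tell whether they shared a cage or batch. With a replicate block there were 95 DEG (51 up-regulated, 44 down-regulated), 91 of them among the 114. Of 1516 comparisons of the 40 named DEG, 0 turned the direction and 136 lost the call. The direction turned in 9 named genes that were not DEG, and the cause was not tested. Klf5 was -0.014 with a pseudocount of 1 FPKM, -0.074 with the slow-fibre score and -0.413 post-exercise. Nfkb1 was 0.008 under upper-quartile and median-of-ratios scaling, 0.006 under quantile scaling and 0.035 pre-exercise. Rxra was -0.023 with the slow-fibre score, -0.019 pre-exercise and, in the 2 settings added after seeing the data, -0.021 with Adipoq and Plin1 as a covariate and -0.022 without HFD-post 2 and 4. Mef2c was -0.013 without HFD-post 2 and 4 and -0.045 pre-exercise. Pre-exercise values also turned in Cited2 (0.303), Dusp10 (0.121) and Pparg (0.027), and post-exercise values in Nr4a3 (0.069) and S100b (-0.029). Values with 1 library left out ran from -0.080 to 0.082 in Klf5, from -0.039 to 0.025 in Nfkb1, from -0.098 to 0.033 in Pparg, from -0.017 to 0.044 in Rxra and from -0.005 to 0.040 in Mef2c. FPKM carry no depth, so small differences in low genes cannot be weighed against counting error.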
